A study of Homo sapiens with 8 samples.

Results

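The transcripts of 8 genes of the sterol regulatory element binding protein (SREBP) pathway were followed in 2 human pancreatic cancer cell lines: the factor genes SREBF1 and SREBF2, the regulator INSIG1, the sterol carrier STARD4, and the fatty acid enzymes FASN, SCD, FADS1 and FADS2. They were taken by gene symbol from a table of 62649 genes, and all 8 were found and were among the 19122 genes with enough signal to be tested. AsPC-1 and PANC-1 are established lines derived from pancreatic cancer, both labelled wild type (WT) in genotype, and were maintained in RPMI with fetal bovine serum. Spheroids formed over 3 days in methylcellulose medium and were then exposed for 24 h with vehicle, with 10 µM roseoflavin (an analog of riboflavin), with 1 nM trametinib (an inhibitor of the kinases MEK1 and MEK2) or with both compounds. Each of the 8 groups is 1 library, so no group has a replicate, and p-values rest on the spread left after the lines and the other compound are taken into account.

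SREBPs are made as membrane proteins of the endoplasmic reticulum. When sterols are scarce, the escort protein SCAP carries them to the Golgi, where proteases release the part that enters the nucleus and switches on genes of sterol and fatty acid synthesis and of sterol uptake. When sterols are plentiful, INSIG proteins hold the complex of SCAP and SREBP back, and INSIG1 is itself a target of the pathway. SREBF2 serves mainly sterol genes, while SREBF1 serves mainly fatty acid genes and also responds to the oxysterol receptors called LXRs. STARD4 moves sterol between membranes, FASN builds palmitate, SCD introduces the double bond that makes monounsaturated fatty acids, and FADS2 and FADS1 are the desaturases that act in turn in making polyunsaturated fatty acids.

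Values are TPM, a level per transcript length that sums to the same total in every library and carries no sequencing depth. Genes of the mitochondrial genome took 41.2% to 44.1% of the TPM in the AsPC-1 libraries and 22.8% to 25.6% in the PANC-1 libraries. The summed epithelial markers (EPCAM, CDH1, KRT8, KRT18 and KRT19) were at 7392 to 8509 TPM in AsPC-1 and 2709 to 3029 in PANC-1, and the mesenchymal markers (VIM, CDH2 and ZEB1) at 668 to 825 and 3155 to 3415. The endothelial markers summed to at most 0.096 TPM, CD3E was at 0 and PTPRC at no more than 0.019 in every library. CD68 made up nearly all of the leukocyte sum, and COL1A1, with DCN at 0, nearly all of the fibroblast sum in PANC-1. In bulk RNA, fewer cells of a type and less RNA per cell cannot be told apart.

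Promoters of 7 of the 8 genes were found in RefSeq (GRCh38.p14). The 4 shown are those of SREBF2, INSIG1, STARD4 and SCD, which carry a CCAAT box before the start. CCAAT is the motif of the factor NF-Y that often lies beside SREBP sites. Levels did not select these 4, since all 8 genes were higher in both roseoflavin-treated PANC-1 libraries, also SREBF1 and FADS1, whose promoters held no CCAAT. Each is the 250 bases before the start, within the windows chr22:41832855-41833154 (plus strand), chr7:155297628-155297927 (plus strand), chr5:111512486-111512785 (minus strand) and chr10:100346983-100347282 (plus strand). Capitals mark CCAAT on either strand (ATTGG when reversed) and the sterol regulatory element TCACNCCAC.
SREBF2: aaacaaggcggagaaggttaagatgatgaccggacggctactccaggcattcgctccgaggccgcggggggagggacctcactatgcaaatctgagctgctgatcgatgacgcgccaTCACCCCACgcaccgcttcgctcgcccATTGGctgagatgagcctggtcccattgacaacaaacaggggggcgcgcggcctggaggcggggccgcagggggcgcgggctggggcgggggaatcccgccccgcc
INSIG1: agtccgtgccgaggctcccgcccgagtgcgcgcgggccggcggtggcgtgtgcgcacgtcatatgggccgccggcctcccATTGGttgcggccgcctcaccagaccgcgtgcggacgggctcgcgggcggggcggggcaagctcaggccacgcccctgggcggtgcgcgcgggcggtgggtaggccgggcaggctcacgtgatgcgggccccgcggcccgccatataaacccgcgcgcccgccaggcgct
STARD4: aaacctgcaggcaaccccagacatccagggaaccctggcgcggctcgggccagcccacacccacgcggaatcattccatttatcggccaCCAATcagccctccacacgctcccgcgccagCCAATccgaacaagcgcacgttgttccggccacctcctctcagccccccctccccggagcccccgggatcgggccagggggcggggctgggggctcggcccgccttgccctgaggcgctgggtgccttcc
SCD: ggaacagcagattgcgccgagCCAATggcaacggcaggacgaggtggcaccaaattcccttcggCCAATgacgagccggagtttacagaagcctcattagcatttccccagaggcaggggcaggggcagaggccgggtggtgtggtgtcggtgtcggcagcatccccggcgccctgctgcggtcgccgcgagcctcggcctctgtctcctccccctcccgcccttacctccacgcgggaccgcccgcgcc
The sterol regulatory element, searched on both strands as TCACNCCAC, was found in SREBF2 alone of the 7 promoters, beginning 133 bases before the start, and 396 of 35093 promoters (1.13%) hold it. CCAAT was found in 5 of 7 against 34.6% of all promoters, and the GC box GGGCGG in 7 of 7 against 44.95%. A gene was counted when any of its promoters matched, while these shares are per promoter. Among the genes of the other lists used below, 26.7% to 82.4% held CCAAT and 66.7% to 92% the GC box, so neither is particular to the members. The CCAAT of FADS2 begins 5 bases after the start. A match describes these letters only. The gene models of FADS1 (chromosome 11, 61799625 to 61829318, minus strand) and FADS2 (61792980 to 61867354, plus strand; GENCODE, GRCh38) overlap on opposite strands. The libraries are stranded, but the strand setting of the counting is not given in the sources used here, so the split of reads between these genes is uncertain. The gene model of FEN1 (49.6 to 76.8 TPM) also overlaps that of FADS2, on the same strand. SREBF1 (chromosome 17, 17810399 to 17837002) and SREBF2 (chromosome 22, 41833079 to 41907308) hold microRNA genes on the same strand (MIR33B and MIR6777 in SREBF1, MIR33A in SREBF2), and RAI1 overlaps SREBF1 on the other strand.

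The 2 lines differed most in the fatty acid enzymes. SCD was the most abundant of the 8 transcripts in both lines and was 6.80 times as high in vehicle-treated PANC-1 as in AsPC-1, FASN was 5.91 times as high and FADS2 10.5 times. SREBF1 was 4.06 times as high, while SREBF2 stood at 1.13 times. STARD4 alone was lower in PANC-1, at 0.391 times the AsPC-1 level.

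**Figure D1:**
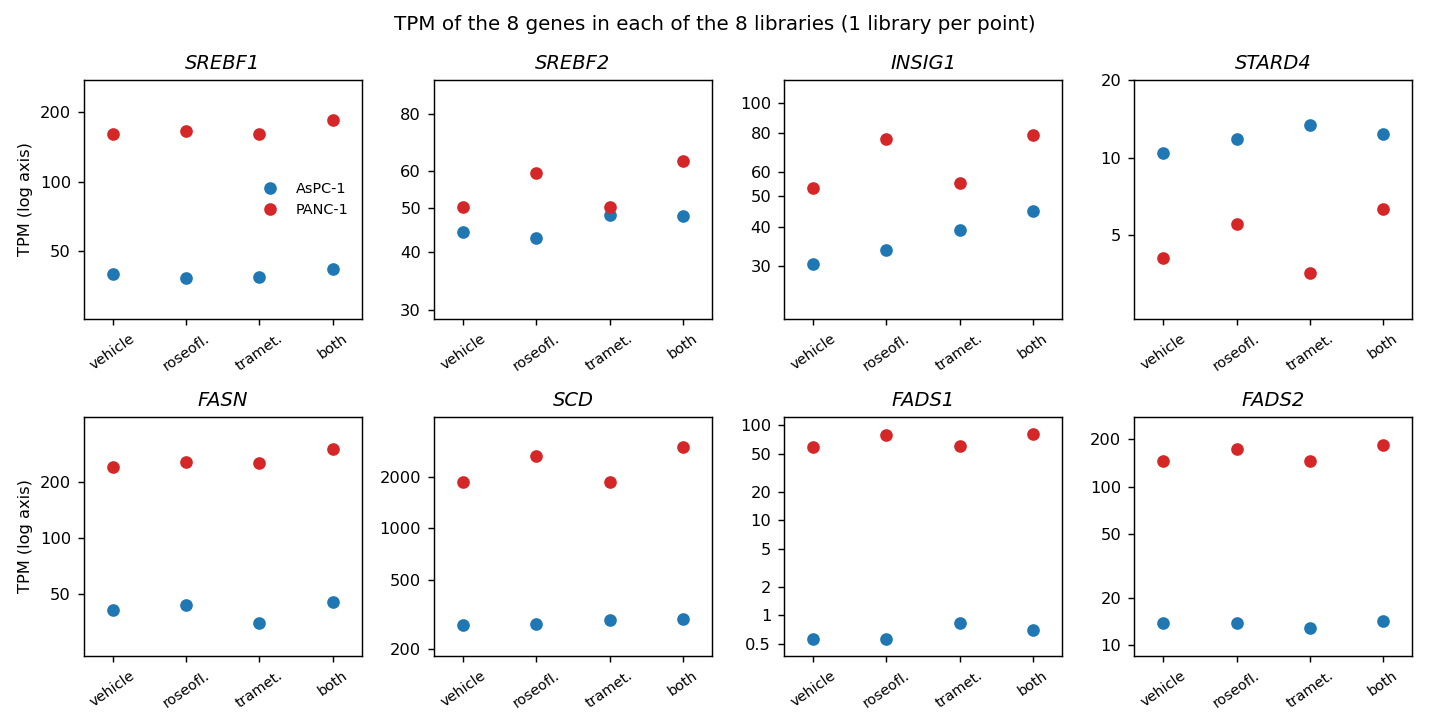
Level of each of the 8 genes (TPM, log axis) in the vehicle, roseoflavin, trametinib and combination library of AsPC-1 (blue) and PANC-1 (red), 1 library per point. The lines do not overlap for any gene, PANC-1 lies above AsPC-1 for every gene but STARD4, and the SREBF2 lines come closest, at 48.2 and 50.0 TPM.

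Among the factors, SREBF1 was at 39.5, 38.0, 38.5 and 41.7 TPM in AsPC-1 with vehicle, roseoflavin, trametinib and both, and at 160.4, 165, 161 and 185 TPM in PANC-1. SREBF2 was at 44.3, 43.0, 48.2 and 48.1 TPM in AsPC-1 and at 50.0, 59.4, 50.2 and 63.2 TPM in PANC-1. The factor genes were therefore at like levels in AsPC-1, where SREBF1 was at 0.798 to 0.892 times SREBF2, and at unlike levels in PANC-1, where it was at 2.79 to 3.21 times. Over the 4 treatments SREBF1 was higher in PANC-1 by 2.06 on the log2(TPM + 1) scale (SE 0.0465, limma adjusted p = 6.33e-08). The SREBF2 difference was 0.27 (SE 0.0715, limma adjusted p = 0.0111), and it turned to -0.19 (limma adjusted p = 0.0361) after quantile normalization and to -0.12 (limma adjusted p = 0.127) with TPM rescaled over genes outside the mitochondrial genome.

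INSIG1, which holds the SREBP complex back, was at 30.4, 33.6, 39.1 and 44.9 TPM in AsPC-1 and at 53.2, 76.4, 55.2 and 78.9 TPM in PANC-1, in the same order of treatments. It was higher in PANC-1 by 0.81 (SE 0.0994, limma adjusted p = 0.000244), or by 0.35 after quantile normalization. STARD4 was at 10.5, 11.9, 13.4 and 12.4 TPM in AsPC-1 and at 4.09, 5.54, 3.56 and 6.33 TPM in PANC-1. Its difference was -1.17 (SE 0.127, limma adjusted p = 0.000128).

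FASN was at 40.9, 43.6, 34.8 and 45.4 TPM in AsPC-1 and at 242, 256, 254 and 301 TPM in PANC-1. SCD was at 275, 279.9, 293 and 298 TPM in AsPC-1 and at 1868, 2645, 1859.7 and 2959 TPM in PANC-1. For both enzymes every PANC-1 library was several times above every AsPC-1 library, and the fitted differences were 2.65 (SE 0.0727, limma adjusted p = 1.46e-07) and 2.99 (SE 0.117, limma adjusted p = 7.21e-07). SCD was at 6.43 to 8.42 times FASN in AsPC-1 and at 7.34 to 10.3 times in PANC-1.

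The desaturases of polyunsaturated fatty acids differed more. FADS2 was at 13.8, 13.9, 12.9 and 14.3 TPM in AsPC-1 and at 145, 172, 146 and 184 TPM in PANC-1, a fitted difference of 3.46 (SE 0.0590, limma adjusted p = 1.95e-08). FADS1 was at 0.560, 0.561, 0.821 and 0.691 TPM in AsPC-1, under 1 TPM in all 4 libraries, and at 59.8, 79.0, 60.5 and 82.2 TPM in PANC-1. It passed the filter on low values through PANC-1 alone, so its 107-fold difference with vehicle is given as a description. FADS2 stood at 15.8 to 24.7 times FADS1 in AsPC-1 and at 2.17 to 2.42 times in PANC-1.

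These differences stand against a wide background, since 83.8% of all tested genes differed between the lines (62.3% higher and 21.5% lower in PANC-1), with a median of 0.55 over all genes. All 4 PANC-1 libraries were above all 4 AsPC-1 libraries for 6 of the 7 members other than FADS1 and for 59.4% of genes, and below them for 1 member and 19.8% of genes. Quantile normalization moved that median by -0.51, and rescaling without mitochondrial genes by -0.31. The share of calls that were higher in PANC-1 was 74.4%, 52.6% with quantile normalization and 61.7% with rescaling. Leaving FADS1 out, the members were called higher or lower 6 to 1, 5 to 2 and 5 to 1 under these scalings.

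In order of level, AsPC-1 held SCD first (286 ± 10.8 TPM, SD over the 4 treatments), then SREBF2, FASN, SREBF1 and INSIG1 (45.9 to 37.0 TPM on average), then FADS2 and STARD4 (13.7 and 12.0) and last FADS1. The ranges of neighbours within each of these sets overlapped. PANC-1 held SCD first (2333 ± 557 TPM), then FASN (263 ± 26.2), then SREBF1 and FADS2 (168 and 161), then FADS1, INSIG1 and SREBF2 (70.4 to 55.7) and last STARD4 (4.88 ± 1.28). These SDs cover treatments and are not replicate error.

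In PANC-1, all 8 genes were higher in both libraries with roseoflavin than in both without it, against 22.9% of all tested genes. The members were chosen with earlier results of these data known. Counts of members beside a share of all genes, here and elsewhere, are therefore descriptions and do not test the set. INSIG1 was 43.7% higher with roseoflavin alone and 42.9% higher when roseoflavin was added to trametinib, SCD 41.6% and 59.1%, STARD4 35.3% and 77.9%, and FADS1 32.1% and 35.7%. FADS2 (18.7% and 26.0%) and SREBF2 (18.7% and 25.7%) came next, and FASN (6.11% and 18.8%) and SREBF1 (3.19% and 14.3%) showed the smallest differences. Under quantile normalization and under rescaling the count was 7 of 8, with FASN the exception. None of the 19122 tested genes passed the adjusted threshold for roseoflavin within PANC-1 in limma, where 1811 had an unadjusted p under 0.05.

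The fitted PANC-1 change was largest for SCD, at 0.59 on the log2(TPM + 1) scale (SE 0.0511, unadjusted p = 7.19e-05, limma adjusted p = 0.101). Among the 9368 genes that averaged 10 TPM or more, 22 passed and SCD was one of them (limma adjusted p = 0.0406). With genes that have a RefSeq mRNA and that mean, a filter added after the data had been seen, 75 genes passed, among them SCD (limma adjusted p = 0.000825), INSIG1 (0.0232) and FADS1 (0.0270). The call for SCD thus changed with the filter. STARD4 averaged under 10 TPM and was not tested under either filter.

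The other fitted changes in PANC-1 were 0.52 for STARD4 (SE 0.123), 0.51 for INSIG1 (SE 0.110), 0.41 for FADS1 (SE 0.0704), 0.29 for FADS2 (SE 0.0574), 0.28 for SREBF2 (SE 0.0527), 0.17 for FASN (SE 0.109) and 0.12 for SREBF1 (SE 0.0632). Their limma adjusted p ran from 0.258 for FADS1 to 0.701 for FASN. An unadjusted p under 0.05 was reached by 6 of the 8, all but FASN and SREBF1, against 5.01% of all genes in that direction. The median of the 8 was 0.35. Between single libraries, compared as TPM + 1, 4 of 8 were at least 25% higher with roseoflavin alone, against 6.41% of genes, and 6 of 8 when it was added to trametinib, against 7.84%.

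In AsPC-1 the same comparison gave smaller fitted changes for 7 of the 8 genes, all but FASN, and of both signs. With roseoflavin alone 6 of 8 were higher than with vehicle, against 32.9% of genes, or 8 of 8 under quantile normalization and under rescaling. These counts include FADS1, at 0.560 TPM with vehicle and 0.561 with roseoflavin, which passed the filter through PANC-1 alone. The median of all genes in that comparison was -0.05, and it was 0.01 and 0 under these scalings. FASN was at 40.9 and 34.8 TPM without roseoflavin and at 43.6 and 45.4 with it, a fitted change of 0.23 (limma adjusted p = 0.582). INSIG1 changed by 0.17 (limma adjusted p = 0.694), and SCD by 0.03 (limma adjusted p = 0.935), with 275 and 293 TPM without and 279.9 and 298 with roseoflavin. FASN and FADS2 alone were higher in both treated libraries than in both untreated ones, 2 of 8 against 10.6% of genes, joined by SREBF1 under both other scalings. The median change of the 8 was 0.03, beside -0.03 for all genes. None of the 19122 genes passed the adjusted threshold in limma, and 1831 had an unadjusted p under 0.05. On the TPM + 1 scale no member was 25% higher with roseoflavin alone, against 3.9% of genes, and FASN was when it was added to trametinib (1 of 8, against 6.1% of genes).

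**Figure D2:**
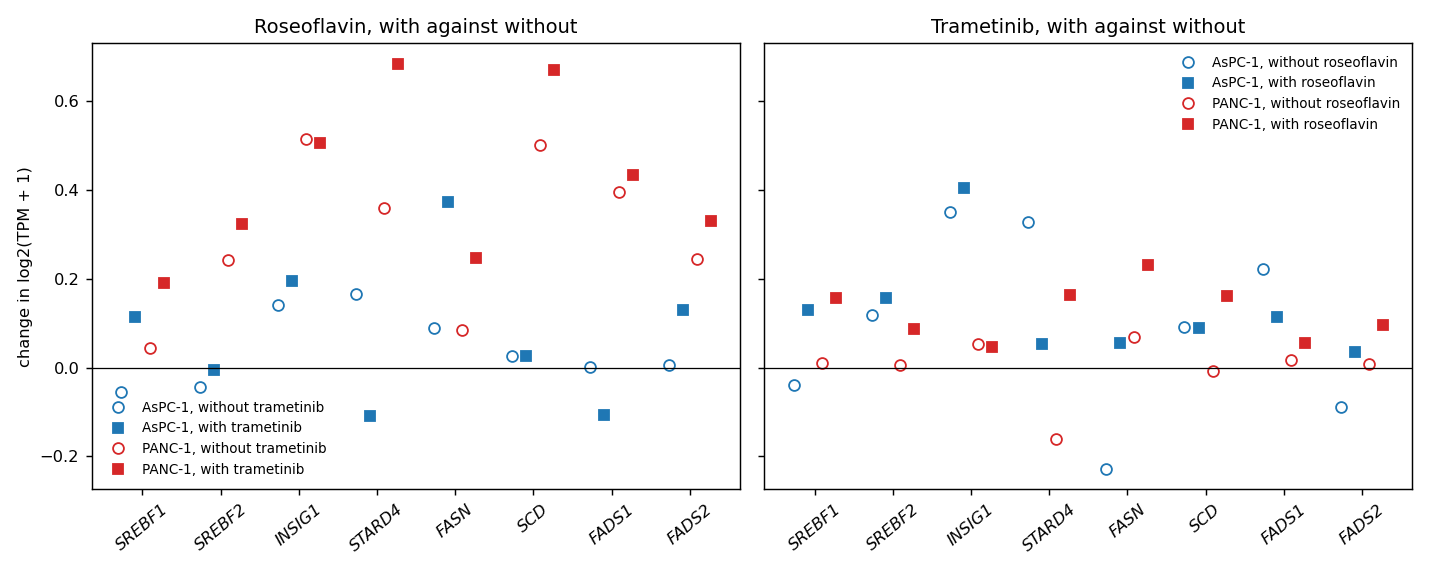
Change in log2(TPM + 1) of each gene between matched libraries that differ in roseoflavin (left) or in trametinib (right), in AsPC-1 (blue) and PANC-1 (red). Open circles are comparisons without the other compound and filled squares those with it. All 16 PANC-1 points for roseoflavin lie above 0, while the AsPC-1 points lie on both sides of it.

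The difference between the lines in the roseoflavin change was 0.56 for SCD (SE 0.0722, unadjusted p = 0.000497, limma adjusted p = 0.202) and 0.31 for SREBF2 (limma adjusted p = 0.364). It was 0.49 for STARD4 (limma adjusted p = 0.469), 0.34 for INSIG1 (0.553), 0.22 for FADS2 (0.484), 0.09 for SREBF1 (0.786) and -0.07 for FASN (0.923). For FADS1, which passed the filter through PANC-1 alone, the changes of 0.41 in PANC-1 and -0.05 in AsPC-1 are given with no test between lines. An unadjusted p under 0.05 was reached by 4 of the other 7 (SREBF2, STARD4, SCD and FADS2), against 6.98% of genes. In all, 5 of 19122 genes (0.0261%) passed the adjusted threshold, none of them a member. No gene passed under quantile normalization or under rescaling. Leaving out 1 of the 8 libraries leaves a group of line and roseoflavin with 1 library, so those fits cannot decide whether the 5 calls hold. SCD passed with the RefSeq filter alone (limma adjusted p = 0.00941).

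Over both lines, INSIG1, FASN, SCD and FADS2 were higher in 4 of 4 matched comparisons with roseoflavin, against 4.91% of genes. Their fitted changes were 0.34 for INSIG1 (SE 0.0994), 0.31 for SCD (SE 0.117), 0.20 for FASN (SE 0.0727) and 0.18 for FADS2 (SE 0.0590), with unadjusted p from 0.0132 to 0.0383 (4 of 8 members under 0.05, against 2.03% of genes) and limma adjusted p from 0.659 to 0.677. Under quantile normalization SREBF1 took the place of SCD in that set. STARD4 (0.28), FADS1 (0.18) and SREBF1 (0.07) were higher in 3 of 4, and SREBF2 (0.13) in 2 of 4. No gene passed the adjusted threshold in limma, and 1358 had an unadjusted p under 0.05.

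With trametinib alone the levels in PANC-1 were between 13.0% lower and 4.89% higher than with vehicle. On top of roseoflavin all 8 genes were 3.27% to 17.5% higher, against 53.4% of genes that were higher. Without roseoflavin, SREBF2 was at 50.0 and 50.2 TPM, SCD at 1868 and 1859.7, FADS1 at 59.8 and 60.5 and FADS2 at 145 and 146 TPM with vehicle and with trametinib. On the TPM + 1 scale no member was 25% higher there, against 6.22% of genes, and the lowest value against vehicle was that of STARD4, at 3.56 against 4.09 TPM. In AsPC-1, INSIG1 was 28.5% higher with trametinib alone, and INSIG1 and STARD4 were at least 25% higher on the TPM + 1 scale (2 of 8, against 6.47% of genes). FADS1 was 46.6% higher in plain TPM, at 0.821 against 0.560, a level under 1 TPM at which that scale does not count it. SREBF2, INSIG1, STARD4, SCD and FADS1 were higher in both trametinib-treated AsPC-1 libraries than in both others, 5 of 8 against 24% of genes, or 4 of 8 under each other scaling. On top of roseoflavin all 8 genes were higher in AsPC-1 too, against 59.3% of genes, or 5 of 8 under each other scaling. Each of these AsPC-1 counts includes FADS1, which was under 1 TPM there and passed the filter through PANC-1 alone.

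Over both lines the trametinib change was 0.21 for INSIG1 (SE 0.0994, limma adjusted p = 0.861), 0.10 for FADS1, 0.10 for STARD4, 0.09 for SREBF2, 0.08 for SCD, 0.06 for SREBF1, 0.03 for FASN and 0.01 for FADS2. INSIG1, SREBF2 and FADS1 were higher in 4 of 4 matched comparisons, against 9.66% of genes, and SREBF2 was not under either other scaling. The AsPC-1 levels behind the FADS1 count were under 1 TPM. No gene passed in limma, and 938 had an unadjusted p under 0.05 (3.12% of genes in the higher direction), none of them a member. The line difference in the trametinib change was -0.33 for INSIG1 (SE 0.163) and 0.24 for FASN (SE 0.120), both with a limma adjusted p of 0.726. These were the lowest and the highest values of the 8 members.

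The combination gave the highest level of every member in PANC-1. Against vehicle the 8 genes were 15.1% to 58.4% higher there (median 32.1%) and 3.21% to 47.5% higher in AsPC-1 (median 9.71%), so all 8 were higher in both lines, against 25% of genes. For FADS1 the AsPC-1 levels were 0.560 TPM with vehicle and 0.691 with both compounds. INSIG1 was 47.5% higher in AsPC-1 and 48.4% higher in PANC-1. In AsPC-1 it was 28.5% higher with trametinib alone, and in PANC-1 43.7% higher with roseoflavin alone and 3.89% higher with trametinib alone. The fitted change over both lines was 0.55 for INSIG1 (SE 0.153, limma adjusted p = 0.821) and 0.39 for SCD (SE 0.179, limma adjusted p = 0.909). Over the 8 members it ran from 0.14 to 0.55. No gene passed in limma, and 1017 had an unadjusted p under 0.05, INSIG1 and FASN among them (2 of 8, against 1.93% of genes that were higher). These comparisons share the vehicle libraries with those of the single compounds.

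A departure of the combination from the sum of the compounds was not detected for any member. The interaction ran from -0.03 to 0.22, and no gene passed in limma, with 536 at an unadjusted p under 0.05.

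Over the 8 libraries, Pearson's r of log2(TPM + 1), centred in each line, was highest for 4 pairs of members. They were SREBF2 with FADS1 (0.976), SREBF2 with SCD (0.949), STARD4 with FADS1 (0.949) and SCD with FADS1 (0.948). Every pair but SREBF2 with SCD holds FADS1, which stayed under 1 TPM in AsPC-1. SCD also varied little there (286 ± 10.8 TPM, SD over treatments), beside 2333 ± 557 TPM for the PANC-1 libraries. These r pool both lines, and whether the pairs vary closely in each line alone was not tested. FASN was at 0.246 with FADS1, 0.323 with STARD4, 0.359 with SREBF2, 0.418 with INSIG1 and 0.510 with SCD, and at 0.751 with SREBF1 and 0.746 with FADS2. Libraries share their treatments, so these values are descriptions. Of 8629 named genes, those most like INSIG1 were KLF11 (0.989), HMGCS1 (0.986), an enzyme of sterol synthesis, and FGFBP1 (0.985). FGFBP1 stayed under 1 TPM in PANC-1, at 0.659, 0.996, 0.637 and 0.986 TPM with vehicle, roseoflavin, trametinib and both. The genes most like SCD were SARS1 (0.989), GCLC (0.989), a subunit of the enzyme that starts glutathione synthesis, and TRIM16 (0.986). Those most like FASN were NR1H2 (0.994), which encodes an LXR, NOC3L (0.971) and SLC25A32 (0.967), a mitochondrial carrier of folate.

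Among the other genes of the pathway, most enzymes of sterol synthesis had positive roseoflavin changes that did not pass the test. The gene lists were also chosen with earlier results of these data known, so their counts are descriptions. In the fit over both lines, 21 of 22 had a positive change (median 0.16, beside -0.017 for all genes), 15 were higher in 4 of 4 matched comparisons (against 4.91% of genes), 13 had an unadjusted p under 0.05 (against 2.03% of genes in that direction) and none passed the adjusted threshold. TM7SF2 was the exception, at -0.06, and is named after its value was seen. MVD (0.32), IDI1 (0.30) and MSMO1 (0.29) had the largest changes. Their median was 0.22 within PANC-1 and 0.10 within AsPC-1. The 29 tested other genes of fatty acid and triglyceride synthesis had a median of 0.04, with 5 higher in 4 of 4 comparisons (against 4.91% of genes) and none passing. ME1, which supplies NADPH to fatty acid synthesis, was at 27.3 and 27.4 TPM without and at 49.6 and 49.9 TPM with roseoflavin in PANC-1, and at 3.88 and 3.92 against 3.94 and 4.91 TPM in AsPC-1. Its fitted change over both lines was 0.49 (SE 0.149). ACLY, which makes cytosolic acetyl-CoA, changed by 0.24, and ELOVL3, an elongase, by 0.31.

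**Figure D3:**
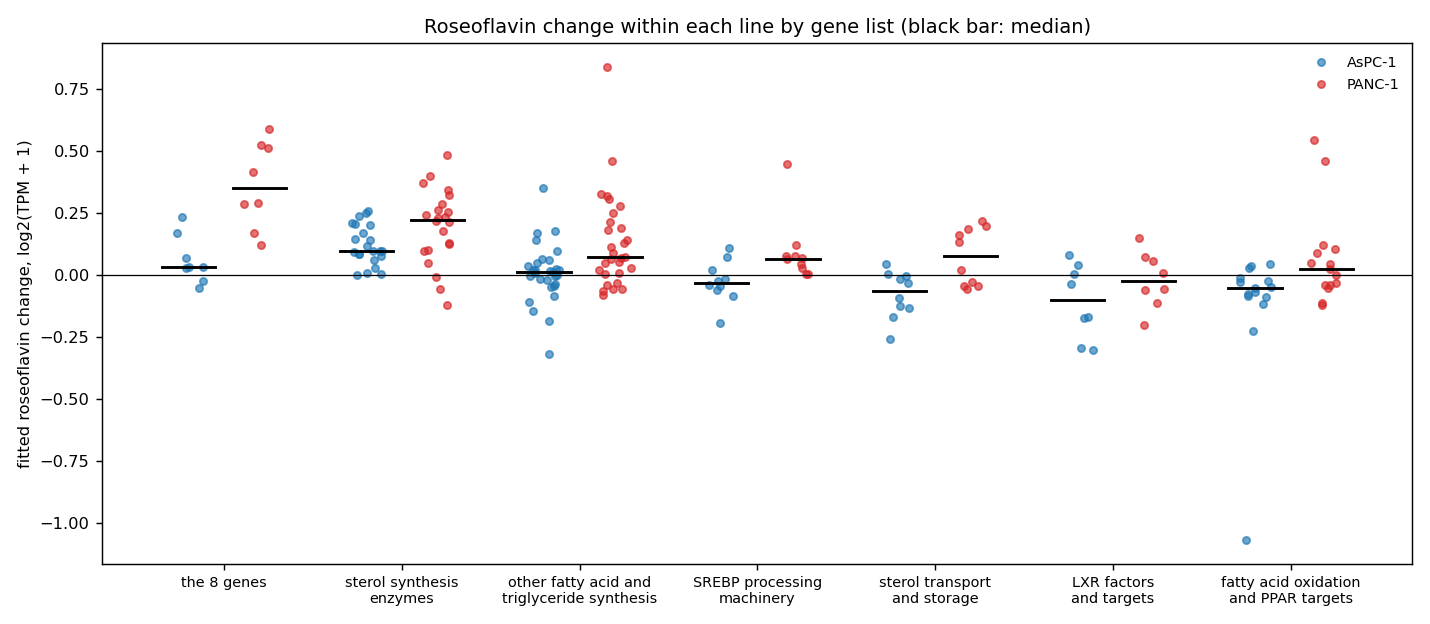
Fitted roseoflavin change in log2(TPM + 1) of each gene of 7 lists within AsPC-1 (blue) and within PANC-1 (red), with the median of each as a black bar. The 8 genes have a median of 0.35 in PANC-1 and 0.03 in AsPC-1, and the sterol synthesis enzymes 0.22 and 0.10.

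The machinery that processes SREBPs (10 genes) had a median of 0.02, with none higher or lower in 4 of 4 comparisons. Within it INSIG2, a relative of INSIG1 named here after its values were seen, was at 38.1, 36.1, 39.5 and 31.7 TPM in AsPC-1 with vehicle, roseoflavin, trametinib and both, and at 19.1, 25.7, 17.6 and 24.9 TPM in PANC-1. Its roseoflavin change was 0.45 in PANC-1 and -0.19 in AsPC-1, and the line difference of 0.64 (SE 0.0977) had a limma adjusted p of 0.222. Of all tested genes, 10.2% were lower and 4.91% higher in 4 of 4 roseoflavin comparisons, which is the background for the counts that follow. Among 8 tested LXR factors and targets the median was -0.07, and MYLIP (-0.19, SE 0.0427) and ABCA1 (-0.18), the cholesterol exporter, were lower in 4 of 4 comparisons while NR1H2 (0.08) was higher. Sterol transport and storage (10 tested) had a median of 0.00 with SOAT1 (-0.15) and OSBPL2 (-0.09) lower in 4 of 4, and fatty acid oxidation with PPAR targets (15 tested) had a median of -0.02 with HADHA (0.07) higher in 4 of 4. No gene of these lists passed the adjusted threshold.

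For trametinib the list medians lay between 0.04 and 0.08, beside 0.018 for all genes, and no listed gene passed. MSMO1 (0.18), FDFT1 (0.14) and HMGCS1 (0.13) led the sterol synthesis enzymes, of which 5 of 22 were higher in 4 of 4 comparisons, against 9.66% of genes. That count was not particular to sterol synthesis. It was 6 of 15 for fatty acid oxidation with PPAR targets and 3 of 8 for LXR factors and targets. SREBP processing and sterol transport had 3 of 10 each, and the other fatty acid genes 6 of 29. In that last list 1 gene was lower in 4 of 4, against 4.54% of genes. SOAT1 (0.25), which stores cholesterol as esters, led sterol transport, and ELOVL7 (0.18) the other fatty acid genes.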

How the data were processed

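RNA was measured in 8 libraries, 1 for each of 4 treatments in AsPC-1 and in PANC-1. The authors deposited 1 table with a TPM value per gene and library. TPM is a read count divided by transcript length and scaled to the same total, and each library here summed to 1000000. Libraries were made with a stranded kit that selects polyadenylated RNA, per the labels' protocols. STAR 2.7.3a, HTSeq 2.0.2 and the build hg38 are named in the submitters' processing notes. The annotation, the strand setting and the gene lengths behind the TPM are not given in the sources used here. The table held 62649 genes after 985926 blank rows were dropped.

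Tests used log2(TPM + 1), on which the change of a low gene comes out too small. A gene was tested when 2 libraries or more had 1 TPM or above (19122 genes, all 8 members among them). Linear models were fitted over all kept genes with limma 3.58.1 in R 4.3.3, with a trend in the prior variance. P-values were Benjamini-Hochberg adjusted over all tested genes and called under 0.05. An additive model of line, roseoflavin and trametinib, which leaves 4 residual degrees of freedom, gave the change with each compound over both lines and the difference between lines. Interactions were fitted as added terms, with 3 residual degrees of freedom. The roseoflavin change within each line is a contrast of the line-by-roseoflavin fit and was added after the data had been seen. Single libraries were compared by a difference of at least 25% in TPM + 1, with no test, while the percentages printed for single genes are of plain TPM. The spread behind every p-value comes from pooling treatments and lines, since no group has a second library, and the depth of the libraries is unknown.

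The members and gene lists were chosen with earlier results of these data known. All 8 members are named for the levels by line, for each compound over both lines and for roseoflavin within PANC-1 and by line. The trametinib difference between lines is given for INSIG1 and FASN alone, and the fitted combination change for INSIG1 and SCD alone. The fitted roseoflavin change within AsPC-1 is given for some members, and the interaction of the compounds as a range. From each other list, at most 3 genes per compound with the largest change, a mean of at least 1 TPM and 1 direction in 4 of 4 matched comparisons are named. The 3 genes most like INSIG1, FASN and SCD were named by Pearson's r. Genes named outside these rules are said to be so. A gene that the rule would name is not reported here. Alternatives were quantile normalization, TPM rescaled over genes outside the mitochondrial genome, no filter, a mean of at least 10 TPM, a pseudocount of 0.1, a prior variance without a trend, no term for the line, and leaving out each library. A filter on genes with a RefSeq mRNA and a mean of at least 10 TPM (7907 genes) was added after the data had been seen. The models were tested on simulated data. Gene coordinates are from GENCODE release 29 on GRCh38, and promoters are from RefSeq on GRCh38.p14.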

Additional observations from a re-analysis of the deposited data

Results flagged for a closer look

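SREBF2 was lower with roseoflavin in both AsPC-1 comparisons (44.3 to 43.0 TPM alone, 48.2 to 48.1 TPM on trametinib) and higher in both PANC-1 comparisons (50.0 to 59.4 and 50.2 to 63.2 TPM). The PANC-1 change exceeded the AsPC-1 change by 0.31 on the log2(TPM + 1) scale (SE 0.0745), and in the test of that difference, the limma interaction of line and roseoflavin, the adjusted p was 0.364. With TPM rescaled over genes outside the mitochondrial genome, the AsPC-1 changes were 0.03 and -0.03, and after quantile normalization 0.01 and -0.01. The opposite signs of the lines therefore did not hold under either other scaling.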

How the results depend on the processing

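Libraries were matched by line, through the line term of the fits and the matched comparisons. No pairing of replicates was possible because each group is 1 library and the labels give no replicate numbers. All 126 alternative values of the roseoflavin change over both lines kept their direction and their side of the threshold. All 32 of the combination, fitted for INSIG1 and SCD alone, kept their direction. The filters, the prior without a trend and the dropped line term leave the fitted change as it is, so they cannot turn its direction. No member was near the threshold for roseoflavin in the main fit (limma adjusted p from 0.659 to 0.774), so keeping its side says little. For the line difference, SREBF2 turned to -0.19 with quantile normalization and -0.12 with TPM rescaled without mitochondrial genes, and 8388 genes passed at a mean of 10 TPM and 7236 with the RefSeq filter, which test fewer genes. For roseoflavin by line, 0 genes passed with quantile normalization, 0 with rescaling and 0 with no filter. In the same comparison 8 passed with a pseudocount of 0.1, 10 without a trend and 103 with the RefSeq filter. For trametinib by line, 2 passed with rescaling, 2 with no filter, 4 with the pseudocount of 0.1 and 16 without a trend. For roseoflavin within AsPC-1, 10 passed with no filter, 1 with the pseudocount of 0.1, 7 without a trend and 72 with the RefSeq filter, and SREBF2 was at 0.000395 with rescaling. For roseoflavin within PANC-1, 2 passed with no filter, 22 at a mean of 10 TPM, 2 with the pseudocount of 0.1, 4 without a trend and 75 with the RefSeq filter. For trametinib over both lines, 1 gene passed with the RefSeq filter, and FADS2 was at -2.9e-05 with quantile normalization and -0.0056 with rescaling. With 1 library left out, the trametinib changes ran from -0.023 to 0.22 for STARD4, -0.026 to 0.11 for FASN, -0.0052 to 0.18 for SCD and -0.035 to 0.066 for FADS2. The line difference in the roseoflavin change of FASN ran from -0.24 to 0.11, and the AsPC-1 roseoflavin changes from -0.039 to 0.099 for SREBF1, -0.067 to 0.019 for SREBF2, -0.13 to 0.18 for STARD4 and -0.13 to 0.027 for FADS1. The cause of these changes was not tested, and the depth of the libraries is unknown.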

Other observations

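Among the PPAR targets, PLIN2, which coats lipid droplets, was at 18.8 and 19.8 TPM without and at 28.7 and 28.4 TPM with roseoflavin in PANC-1, and at 14.5 and 15.2 against 14.7 and 14.4 TPM in AsPC-1. The line difference in its roseoflavin change was 0.57 (SE 0.0759, limma adjusted p = 0.208). ANGPTL4, an inhibitor of lipoprotein lipase, was at 251 and 227 TPM without and at 340.1 and 317 TPM with roseoflavin in PANC-1, and at 18.7 and 23.7 against 13.0 and 6.88 TPM in AsPC-1, a line difference of 1.53 (SE 0.370, limma adjusted p = 0.364). FADS3, a relative of FADS1 and FADS2, was at 15.1 and 15.9 TPM without and at 11.8 and 12.7 TPM with roseoflavin in AsPC-1, and at 12.5 and 13.6 against 16.1 and 16.8 TPM in PANC-1, a line difference of 0.64 (SE 0.0701, limma adjusted p = 0.174). These 3 genes were named after their values had been seen, and none of the differences passed the threshold.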
